A study of Homo sapiens with 10 samples.

Results

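The genes described here encode the nuclear pore complex and the receptors that carry cargo through it. They were taken from a list of 50 genes sorted into 9 roles. For each gene the probe that carries its symbol alone was used, and 39 of the 50 have such a probe, among 14232 genes that do. All 39 passed a filter on low signal, a log2 level of 5.96, the 25th percentile of all probes. By role, 6 measured members belong to the Y complex, 3 to the inner ring, 3 to the central channel and membrane, 5 to the cytoplasmic face, 3 to the nuclear basket, 5 to the importin alpha family, 7 to the importin beta and transportin family, 4 to the exportins and 3 to the Ran cycle. NUP62, RANBP2, KPNA4, TNPO2, IPO7, IPO11 and RCC1 lie on probes shared with other genes, and NUP85, NUP188, NUP205 and RANBP1 have no probe in the annotation table, so these 11 members were not analysed here.

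Nuclear pores are large protein channels set into the nuclear envelope, where they are anchored next to the nuclear lamina. The Y complex and inner ring build the scaffold, FG-repeat proteins fill the channel, and filaments extend to the cytoplasm and into a nuclear basket. Importins carry proteins inward and exportins carry them outward. The direction is set by the small GTPase RAN, which is bound to GTP in the nucleus and to GDP in the cytoplasm.

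Gene-level exon arrays, 10 in all, measured RNA of DLD-1, an established human colorectal cancer cell line, to ask how loss of lamin B1, a filament protein of the lamina encoded by LMNB1, changes the cells. Knockdown was by shRNA, a short hairpin RNA that directs breakdown of LMNB1 mRNA, in clones grown from single cells. Construct V2LHS_62673 gave clones 8, 9 and 12, with 1 array each, and construct V2LHS_62675 gave 1 clone, number 2, with 3 arrays that were averaged. The negative controls were 1 array of wild type cells, which carried no vector, and 3 clones with an empty vector, so the comparisons rest on 4 knockdown and 4 control samples. Puromycin was kept on every culture but the wild type one. Labels disagree on the 3 arrays of construct V2LHS_62675. Their titles name clone 12 with biological replicates, but the sample descriptions and the design give repeats of clone 2, and the arrays were used as such. The p-values measure the spread between single cell clones, to which the main comparison adds the wild type culture. In the tests of each clone on its own it is the spread of the 3 empty vector clones alone.

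Clone 8 differed from all other arrays. Over 22011 probes it correlated with the other 9 arrays at 0.915 to 0.926, and those correlated with each other at 0.986 to 0.994. Its median log2 level was 7.62, against 7.34 to 7.41 on the other arrays. The only LMNB1 probe is shared with PCIF1 by annotation. It read 7.79, 7.70, 7.45 and 7.67 in clones 8, 9, 12 and 2, against 9.52 in wild type cells and 8.93, 9.17 and 8.84 in the empty vector clones. All 4 knockdown values lay below all 4 controls, a difference of -1.46 with an exact two-sided permutation p of 0.0286, the smallest that 4 against 4 allows, and an adjusted p of 0.0603 in limma. Of 10 colon epithelial markers 9 exceeded the low-signal level, all but KRT20, and the mean of the list was 9.29 to 9.59 in knockdown clones and 9.43 to 9.71 in controls. In clone 8 this mean was 9.48, but single markers moved both ways. CDH1 read 10.43 there and CDH17 8.93, against 11.33 to 11.42 and 10.27 to 10.59 in controls. KRT18 read 10.35, against 9.67 to 9.74. The fibroblast list averaged 7.30 in clone 8, 6.72 to 6.73 in the other knockdown clones and 6.64 to 6.82 in controls. The endothelial list averaged 6.31 in clone 8, 5.74 to 5.75 in the others and 5.61 to 5.81 in controls, and the leukocyte list, with 3 of 5 genes on the array, 5.56, 5.11 to 5.23 and 5.15 to 5.25. Of these lists VIM, PECAM1, KDR, PTPRC and CD3E had means below the low-signal level. The means of the other 4 of 5 fibroblast, 2 of 4 endothelial and 1 of 3 leukocyte genes exceeded it. On the clone 8 array KDR read just above that level, and what part these lists have in the clone 8 values was not tested. Features of low level read higher in clone 8 in general. Those at 5.60 to 7.23 in the empty vector clones, in 3 bins by level, had median differences of 0.59, 0.54 and 0.51.

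No member passed the test between the 4 knockdown clones and the 4 controls. In limma 0 of 39 members passed an adjusted p of 0.05, as did 0% of all 11199 features, and 0 members and 256 features had an unadjusted p under 0.05. The smallest adjusted p of a member was 0.761. The members' median difference was -0.14 on the log2 scale, with 30 of 39 lower in the knockdown, beside a median of 0.04 over all features. Without clone 8 the median was 0.01, with 19 of 39 lower, and again 0 members and 0% of features passed, with 3 members and 724 features at an unadjusted p under 0.05. In bulk samples fewer cells expressing a gene and less RNA per cell cannot be told apart.

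Set against the mean of the 3 empty vector clones, the members differed most in clone 8. Their median difference was -0.64 in clone 8, 0.03 in clone 9, 0.03 in clone 12, 0.10 in clone 2 and 0.14 in wild type cells. Over all features the same medians were 0.18, 0.00, -0.00, 0.02 and -0.01. In clone 8, 32 of 39 members were lower, against 15 in clone 9, 17 in clone 12, 10 in clone 2 and 9 in wild type cells. The widest changes in clone 8 ran from -2.10 for IPO9 to 1.02 for RAE1, and 26 members differed by more than 0.5. In clone 9 the members ran from -0.21 for NUP210 to 0.31 for KPNA2, and in clone 12 from -0.31 for KPNA5 to 0.30 for KPNA2, with none beyond 0.5 in either.

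**Figure D1:**
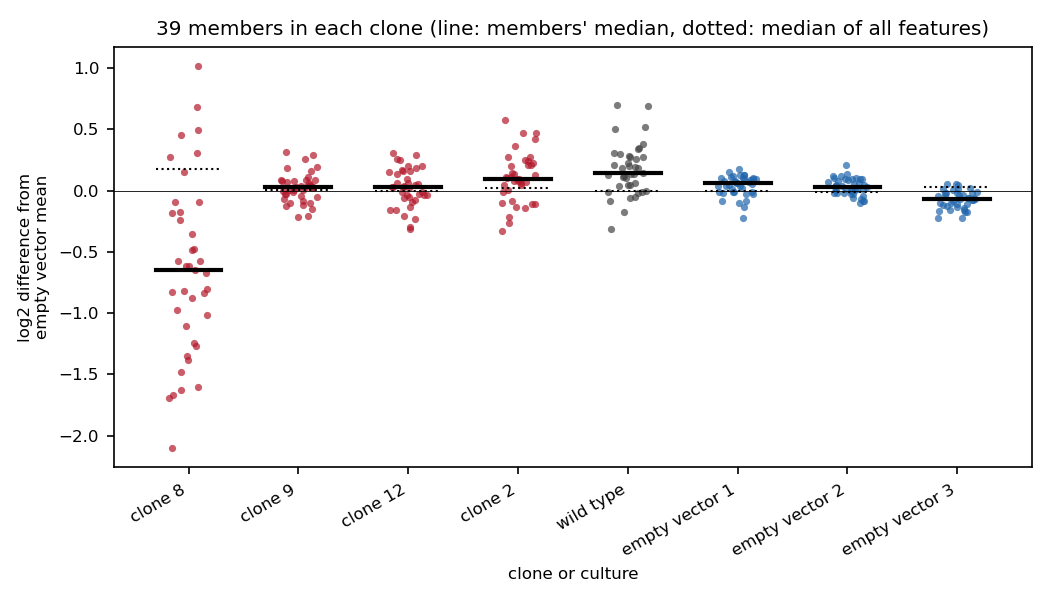
Each point is 1 of the 39 members, as its log2 difference from the mean of the 3 empty vector clones (vertical axis), for each clone or culture (horizontal axis). The solid line is the members' median and the dotted line the median of all 11199 features. Clone 8 has a members' median of -0.64, while those of clones 9, 12 and 2 lie between 0.03 and 0.10 and that of wild type cells at 0.14.

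To place each clone on its own, clones 8, 9, 12 and 2 and the wild type culture were each tested against the 3 empty vector clones, whose spread alone sets the error, so that each single clone is assumed to vary as they do. In clone 8, 32 of 39 members passed in limma, 27 lower and 5 higher. This is set beside 73.9% of all features, of which 30.4% were lower and 43.5% higher, so that most of what was measured differed in this array and the members leaned to the lower side. In clone 9, 0 members passed, beside 1.26% of features, and in clone 12, 0 members, beside 2.21%. In clone 2, 2 members rose, KPNA2 and RAE1, beside 6.30% of features in either direction and 2.79% higher. In wild type cells, 4 members were higher, RAE1, NUP107, NUP35 and NUP155, beside 6.66% in either direction and 3.15% higher.

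**Figure D2:**
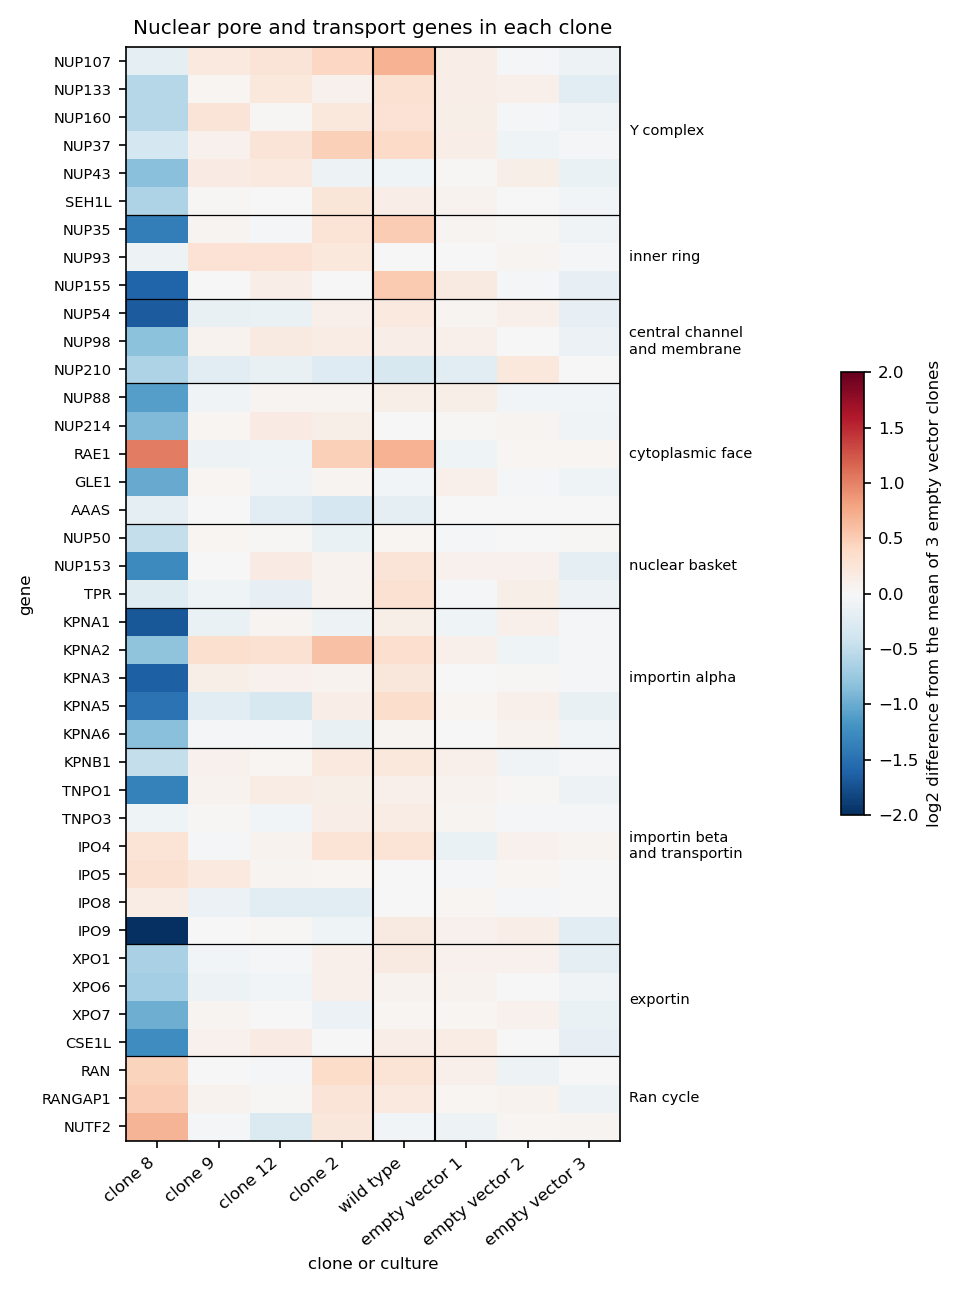
Colour gives the log2 difference of each member from the mean of the 3 empty vector clones. Rows are the 39 genes grouped by role and columns the clones 8, 9, 12 and 2, wild type cells and the 3 empty vector clones. The column of clone 8 holds 32 lower members, the strongest IPO9 at -2.10, just past the end of the colour scale, and 7 higher ones, RAE1, IPO4, IPO5, IPO8, RAN, RANGAP1 and NUTF2.

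Over all features, the clone 8 difference moved with signal level. All features were put into 10 bins of about equal size by their level in the empty vector clones. The median difference in clone 8 was 0.59 in the lowest bin and -0.84 in the highest, where 84.9% of features were lower. Its Spearman correlation with level was -0.61 over all 11199 features and -0.30 over the 39 members, from 1 array and given as a description. The members' medians ran in no steady order from bin to bin. Of the members, 36 of 39 were in the upper 5 bins and 17 in the highest one. Measured from the median of their own bin, the members had a median of -0.08, with 20 lower and 19 higher. The medians by role are given next, each over few genes of 1 array, and a difference between roles was not tested. The importin alpha genes stood at a median of -1.13 beyond their bins, the inner ring at -0.77 and the basket at -0.43. The cytoplasmic face stood at -0.27, the exportins at -0.12, the Y complex at -0.06, the central channel and membrane at 0.01, the importin beta family at 0.35 and the Ran cycle at 1.29. The single members furthest out were KPNA5 at -1.59 and NUTF2 at 1.52. Members of 1 role spread widely, from -0.98 for NUP35 to 0.48 for NUP93 in the inner ring. In the importin beta family they ran from -1.27 for IPO9 to 1.15 for IPO5. The importin alpha genes ran from -1.59 to 0.00 for KPNA6, and the Ran cycle from 0.90 for RANGAP1 to 1.52. The clone 8 difference also had a Spearman correlation of -0.30 with genomic gene length over 11189 genes and of -0.25 over the 39 members, all from 1 array, given as a description. Whether level or length has a part in these values was not tested.

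**Figure D3:**
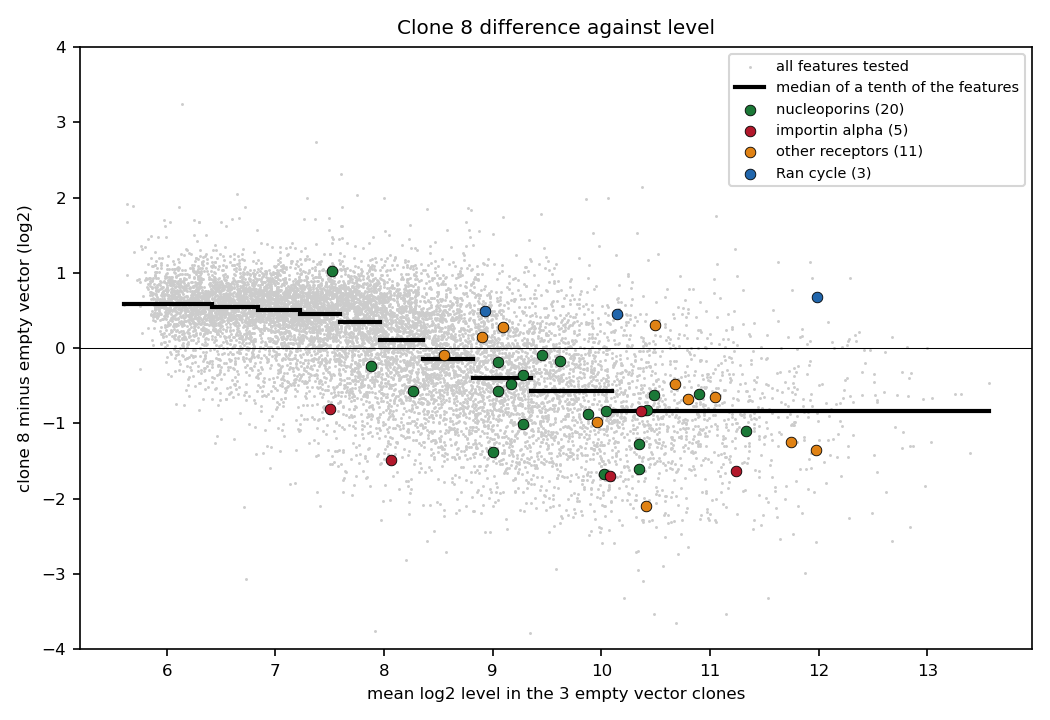
The horizontal axis is the mean log2 level in the 3 empty vector clones and the vertical axis the log2 difference of clone 8 from that mean. Grey points are all features (1 lies outside the plotted range), black bars the medians of the 10 bins by level, and coloured points the members by role. The bars descend across the 10 bins, the 3 Ran cycle genes lie above them, and 4 of the 5 importin alpha genes lie below, KPNA6 being level with its bar.

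Other scalings of the arrays moved the clone 8 counts. As deposited, 27 members were lower and 5 higher past the threshold in limma, with a median over all features of 0.18. After quantile normalization 25 were lower and 7 higher, beside 32.9% of all features lower and 33.6% higher, with a median over all features of 0.05. After centring each array on its median the members split into 32 and 2, beside 38.5% lower and 26.9% higher, with -0.06. After cyclic loess normalization, tried after seeing the data, they split into 20 and 8, beside 30.8% lower and 22.7% higher, with -0.03. The share of all features that were higher thus moved as well. The members' own median was -0.64, -0.53, -0.88 and -0.40 in the same order. All 5 importin alpha genes were lower and passed under each of the 4 scalings. All 3 Ran cycle genes were higher under each, but RAN and RANGAP1 missed the threshold after median centring (adjusted p of 0.162 and 0.115 in limma).

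**Figure D4:**
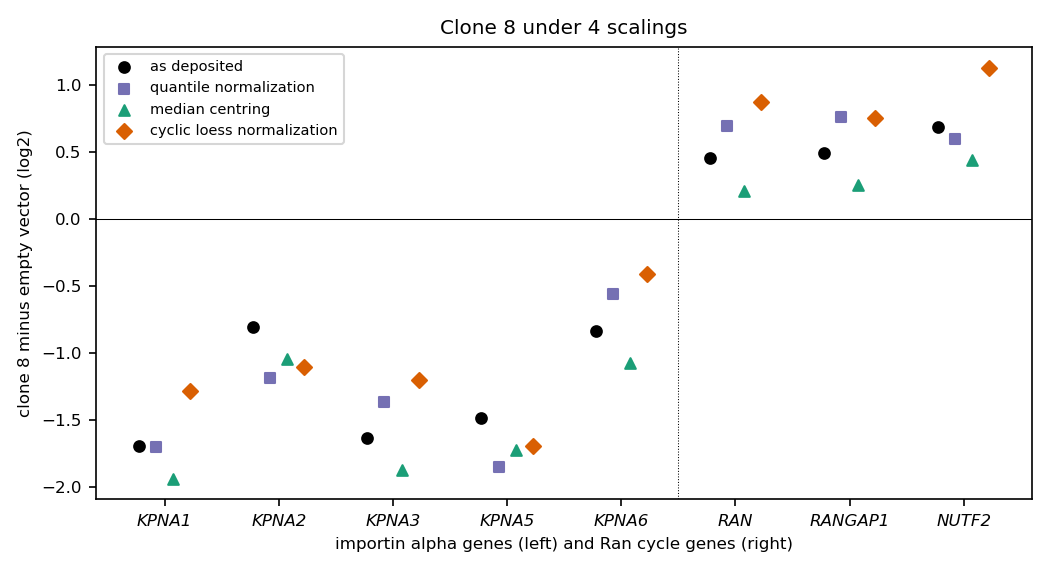
The vertical axis is the log2 difference of clone 8 from the mean of the 3 empty vector clones and the horizontal axis the 5 importin alpha and 3 Ran cycle genes. Marker shapes are the 4 scalings of the arrays. Every importin alpha value lies below 0 and every Ran cycle value above 0.

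The promoters of 5 members are shown because they stand for the patterns above: IPO9 and KPNA1 with the deepest drops in clone 8, RAE1 and RAN with rises there, and KPNA2, which differed between clones 8 and 2. Each run is the 250 bases before the RefSeq start site in GRCh38.p14, read 5′ to 3′ on the strand of the gene. Capitals mark matches on either strand to any of 6 motifs searched, the CCAAT box, the GC box (GGGCGG), the ETS core (CCGGAAG), an NRF1 site core (GCATGCGC), an E2F site (TTTNNCGC) and the TATA box (TATAAA).
IPO9, chr1:201828907-201829156, plus strand: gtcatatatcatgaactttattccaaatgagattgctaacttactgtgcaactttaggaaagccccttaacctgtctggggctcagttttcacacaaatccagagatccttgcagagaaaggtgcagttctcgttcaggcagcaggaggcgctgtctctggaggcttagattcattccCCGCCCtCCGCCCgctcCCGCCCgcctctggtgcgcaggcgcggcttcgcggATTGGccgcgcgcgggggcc
KPNA1, chr3:122514940-122515189, minus strand: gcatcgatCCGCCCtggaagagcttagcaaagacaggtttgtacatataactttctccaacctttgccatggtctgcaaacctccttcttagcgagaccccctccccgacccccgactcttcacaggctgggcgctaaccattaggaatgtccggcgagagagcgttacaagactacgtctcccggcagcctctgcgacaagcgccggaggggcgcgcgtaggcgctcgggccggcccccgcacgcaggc
RAE1, chr20:57351292-57351541, plus strand: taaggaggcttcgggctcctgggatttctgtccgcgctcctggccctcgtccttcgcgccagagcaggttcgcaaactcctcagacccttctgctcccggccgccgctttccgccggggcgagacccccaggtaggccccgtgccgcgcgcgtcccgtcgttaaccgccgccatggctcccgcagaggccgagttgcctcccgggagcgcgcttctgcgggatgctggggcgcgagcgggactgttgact
RAN, chr12:130871816-130872065, plus strand: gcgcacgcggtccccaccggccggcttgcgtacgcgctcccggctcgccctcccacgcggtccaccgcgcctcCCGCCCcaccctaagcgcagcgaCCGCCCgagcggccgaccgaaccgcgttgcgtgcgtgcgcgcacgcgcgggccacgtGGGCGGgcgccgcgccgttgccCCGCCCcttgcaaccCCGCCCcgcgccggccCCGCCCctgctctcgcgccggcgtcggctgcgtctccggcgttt
KPNA2, chr17:68035485-68035734, plus strand: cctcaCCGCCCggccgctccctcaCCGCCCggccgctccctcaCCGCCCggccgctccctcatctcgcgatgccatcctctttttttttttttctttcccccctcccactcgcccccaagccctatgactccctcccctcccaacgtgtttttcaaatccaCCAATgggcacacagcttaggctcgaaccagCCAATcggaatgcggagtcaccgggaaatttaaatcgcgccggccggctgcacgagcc

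The RAN promoter holds 6 GC boxes and has a GC content of 81.2%. The KPNA2 promoter holds 3 GC boxes and 2 CCAAT motifs, and the RAE1 window holds none of the 6 motifs. Windows were found for 34 of the 39 measured members, 44 windows in all, and not for GLE1, KPNA5, KPNB1, NUP43 and XPO7. The ETS core was in 25% of the members' windows, beside 8.52% of all 35114 windows of the same length. The GC box was in 59.1%, beside 42.6%, and CCAAT in 43.2%, beside 32.0%. The NRF1 site core was in 4.55%, beside 2.63%, the E2F site in 4.55%, beside 5.92%, and the TATA box in 4.55%, beside 10.7%. The median GC content was 63.0% in the members' windows and 58.0% in all. These matches describe letters in the window and were not set against the clones.

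The Y complex, the outer scaffold of the pore, was lower in clone 8 for all 6 measured members, with a median of -0.57. Over all features, at every level, 41.9% were lower there, with a median of 0.18. Measured from the medians of their level bins, the 6 members had a median of -0.06. NUP107, NUP37 and SEH1L then stood at 0.21, 0.05 and 0.22, and NUP133, NUP160 and NUP43 at -0.18, -0.68 and -0.26. NUP133, a stem subunit, stood at 8.47, 9.08, 9.25 and 9.12 in clones 8, 9, 12 and 2, against 9.35 in wild type cells and 9.17, 9.14 and 8.82 in the empty vector clones. SEH1L, which also belongs to a complex that regulates mTORC1, stood at 10.29, 10.93, 10.89 and 11.14 in clones 8, 9, 12 and 2, against 11.04 in wild type cells and 10.97, 10.89 and 10.84 in the empty vector clones. NUP43, another subunit of the scaffold, stood at 9.21, 10.20, 10.24 and 9.93 in clones 8, 9, 12 and 2, against 9.95 in wild type cells and 10.06, 10.16 and 9.91 in the empty vector clones. For all 3 genes clone 8 was the lowest of the 8 samples and the other knockdown clones overlapped the controls. Their knockdown minus control differences were -0.14 (SE 0.19), -0.12 (SE 0.18) and -0.12 (SE 0.22), and their sign turned positive without clone 8, at 0.03, 0.05 and 0.11. NUP107, whose protein joins NUP133 in the stem, stood at 8.86, 9.24, 9.31 and 9.47 in clones 8, 9, 12 and 2, against 9.74 in wild type cells and 9.17, 9.03 and 8.94 in the empty vector clones. Clones 9, 12 and 2 were above all 3 empty vector clones and below the wild type culture, and clone 8 was below all of them. The other subunits NUP160 and NUP37 differed by -0.57 (SE 0.14) and -0.36 (SE 0.14) in clone 8, both past the threshold for the deposited values, while NUP37 in clone 2 stood at 0.47 (SE 0.14), just short of it (adjusted p of 0.0502 in limma). The clone 8 counts of this complex depend on the scaling. NUP37 missed the threshold after quantile (adjusted p of 0.231 in limma) and cyclic loess normalization (0.985). After cyclic loess 4 members were lower and 2 higher, with a median of -0.25, beside -0.03 over all features. NUP133 and SEH1L then missed the threshold, at -0.33 and -0.18, and NUP107 stood at 0.13.

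The inner ring, which lines the scaffold at the plane of the envelope, held 2 of the members that fell furthest in clone 8. NUP155 stood at 8.74, 10.35, 10.49 and 10.35 in clones 8, 9, 12 and 2, against 10.87 in wild type cells and 10.53, 10.33 and 10.19 in the empty vector clones. NUP35, which contacts the membrane, stood at 7.62, 9.06, 8.97 and 9.27 in clones 8, 9, 12 and 2, against 9.50 in wild type cells and 9.06, 9.02 and 8.93 in the empty vector clones. Clone 8 was more than 1 log2 unit below every other sample for both genes. Against the empty vector clones NUP155 differed by -1.61 (SE 0.15, adjusted p of 1.36e-07 in limma) and NUP35 by -1.39 (adjusted p of 2.31e-07 in limma). NUP93, a scaffold protein that anchors the channel proteins, ran the other way in the remaining knockdown clones, at 9.36, 9.74, 9.75 and 9.67 in clones 8, 9, 12 and 2, against 9.44 in wild type cells and 9.45, 9.50 and 9.42 in the empty vector clones. Clones 9, 12 and 2 lay above all 4 controls and clone 8 below them. Without clone 8 the difference of NUP93 was 0.27 (SE 0.07), with an adjusted p of 0.646 in limma, which did not pass. Its 3 arrays of clone 2 spread from 9.38 to 9.89, more than the 4 controls did. The sign of NUP93 in clone 8 turned with the scaling. Against the empty vector clones it was called lower after median centring (-0.33, adjusted p of 0.0366 in limma) and higher after cyclic loess normalization (0.29, 0.0473).

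The central channel and membrane members NUP54, NUP98 and NUP210 were all lower in clone 8 on the deposited values. Their median was -0.82, beside 0.18 over all features. Measured from the medians of their level bins, NUP54 stood at -1.10, NUP98 at 0.01 and NUP210 at 0.22. NUP54, an FG-repeat protein of the transport channel, stood at 8.35, 9.87, 9.89 and 10.12 in clones 8, 9, 12 and 2, against 10.22 in wild type cells and 10.07, 10.12 and 9.86 in the empty vector clones. NUP98, an FG-repeat protein that binds the mRNA export factor RAE1, stood at 9.60, 10.50, 10.61 and 10.56 in clones 8, 9, 12 and 2, against 10.55 in wild type cells and 10.53, 10.43 and 10.31 in the empty vector clones. NUP210, a membrane-spanning protein of the pore, stood at 9.87, 10.28, 10.33 and 10.22 in clones 8, 9, 12 and 2, against 10.17 in wild type cells and 10.26, 10.70 and 10.50 in the empty vector clones. Clone 8 was the lowest sample for each, and the other knockdown clones lay within or near the range of the controls. NUP54 in clone 8 fell by 1.67 (adjusted p of 5.99e-08 in limma). The knockdown minus control differences were -0.51 (SE 0.34), -0.14 (SE 0.22) and -0.23 (SE 0.16), none past the threshold. In clone 8 NUP210 missed the threshold after quantile (-0.32, adjusted p of 0.112 in limma) and cyclic loess normalization (-0.20, 0.365), where the median of the 3 was -0.54 and -0.40.

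On the cytoplasmic face, where exported mRNA leaves the pore, 4 of 5 members were lower in clone 8 and 1 higher, with a median of -0.88, beside 0.18 over all features. NUP88, a partner of NUP214, stood at 10.22, 11.26, 11.38 and 11.38 in clones 8, 9, 12 and 2, against 11.44 in wild type cells and 11.45, 11.26 and 11.27 in the empty vector clones. GLE1, which activates the helicase that strips proteins from exported mRNA, stood at 8.27, 9.31, 9.21 and 9.34 in clones 8, 9, 12 and 2, against 9.23 in wild type cells and 9.39, 9.25 and 9.20 in the empty vector clones. Clone 8 was about 1 log2 unit below the other samples for both. NUP88 in clone 8 differed by -1.11 (SE 0.14) and GLE1 by -1.01 (SE 0.14), both past the threshold in limma (adjusted p of 3.57e-06 and 8.26e-06). NUP214, the FG-repeat partner of NUP88, differed by -0.88 (SE 0.13) there. AAAS, which encodes aladin, stood at 9.44, 9.62, 9.39 and 9.29 in clones 8, 9, 12 and 2, against 9.44 in wild type cells and 9.60, 9.62 and 9.63 in the empty vector clones, with clone 2 the lowest of the 8 samples and the groups overlapping. In clone 8 it passed as lower after median centring (-0.41, adjusted p of 0.0116 in limma) and stood at 0.09 and 0.19 after quantile and cyclic loess normalization.

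RAE1, the mRNA export factor, did not follow the other genes of the cytoplasmic face. It stood at 8.53, 7.42, 7.43 and 7.99 in clones 8, 9, 12 and 2, against 8.22 in wild type cells and 7.44, 7.56 and 7.56 in the empty vector clones. Clone 8 was the highest, wild type cells and clone 2 followed, and clones 9 and 12 lay just below the 3 empty vector clones. The 3 arrays of clone 2 read 7.75, 7.99 and 8.22. Against the empty vector clones RAE1 rose by 1.02 in clone 8 (adjusted p of 6.54e-06 in limma), by 0.47 in clone 2 (0.0453) and by 0.70 in wild type cells (0.00551). The clone 2 call is close to the threshold and is lost without array 3 of that clone (0.155) and under 6 other settings. Clone 2 against the 3 clones of the other construct did not pass. Without clone 8 that difference was 0.57 (SE 0.12, adjusted p of 0.0455 in limma), 1 member called beside 2.15% of features, 0.929% in the higher direction.

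In the nuclear basket, the filaments on the nuclear side, NUP153 and NUP50 fell in clone 8 on the deposited values and TPR did not pass. NUP153, which anchors the basket and binds the lamina, stood at 9.08, 10.35, 10.51 and 10.42 in clones 8, 9, 12 and 2, against 10.60 in wild type cells and 10.44, 10.43 and 10.17 in the empty vector clones. NUP50, which helps release cargo from importin alpha, stood at 8.69, 9.21, 9.19 and 9.04 in clones 8, 9, 12 and 2, against 9.20 in wild type cells and 9.14, 9.17 and 9.18 in the empty vector clones. TPR, the main filament protein of the basket, stood at 7.65, 7.80, 7.72 and 7.95 in clones 8, 9, 12 and 2, against 8.18 in wild type cells and 7.86, 8.00 and 7.78 in the empty vector clones. Clone 8 was the lowest sample for all 3, by more than 1 log2 unit for NUP153 and by less than 0.1 for TPR. NUP153 in clone 8 differed by -1.27 (SE 0.14) from the empty vector clones (adjusted p of 1.42e-06 in limma). The knockdown minus control difference of NUP153 was -0.32 (SE 0.29) with all clones and 0.01 without clone 8. TPR in clone 8 passed as lower under the 3 other scalings (adjusted p of 0.00906 to 0.0168 in limma), and NUP50 missed the threshold after cyclic loess normalization (-0.22, 0.111).

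The importin alpha genes encode the adaptors that bind nuclear localization signals and hand the cargo to importin beta. All 5 fell in clone 8, with a median of -1.48. KPNA1 stood at 8.38, 9.95, 10.14 and 9.98 in clones 8, 9, 12 and 2, against 10.19 in wild type cells and 9.99, 10.17 and 10.06 in the empty vector clones. KPNA3 stood at 9.61, 11.36, 11.34 and 11.32 in clones 8, 9, 12 and 2, against 11.46 in wild type cells and 11.23, 11.27 and 11.22 in the empty vector clones. KPNA6 stood at 9.54, 10.32, 10.34 and 10.23 in clones 8, 9, 12 and 2, against 10.42 in wild type cells and 10.36, 10.44 and 10.31 in the empty vector clones. Each of these genes had clone 8 alone far below a narrow band of the other 7 samples. In clone 8 KPNA1 differed by -1.69 (adjusted p of 3.09e-08 in limma), KPNA3 by -1.63 (3.19e-08) and KPNA6 by -0.83 (4.54e-05).

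KPNA5, another adaptor of the family, stood at 6.58, 7.86, 7.75 and 8.20 in clones 8, 9, 12 and 2, against 8.41 in wild type cells and 8.11, 8.16 and 7.92 in the empty vector clones. Clones 9 and 12 were also below the 3 empty vector clones, though by less than clone 8, and clone 2 was above them. Its difference between all knockdown clones and controls was -0.55 (SE 0.30), and -0.21 without clone 8. KPNA2, the family member best known for its high level in dividing cells, was low in clone 8 and highest in clone 2, at 6.70, 7.82, 7.81 and 8.08 in clones 8, 9, 12 and 2, against 7.85 in wild type cells and 7.61, 7.42 and 7.49 in the empty vector clones. The 3 arrays of clone 2 read 7.67, 8.39 and 8.20, and clones 9, 12 and 2 all lay above the 3 empty vector clones. Wild type cells lay above them too, at a level between clones 9 and 2. Against the empty vector clones KPNA2 was -0.81 (SE 0.14) in clone 8 (adjusted p of 7.84e-05 in limma) and 0.58 (SE 0.14) in clone 2 (adjusted p of 0.0180). The rise in clone 2 missed the threshold without empty vector clone 2 (0.0529) and without array 2 of clone 2 (0.0754).

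The importin beta and transportin family was split in clone 8, with 4 of 7 lower and 3 higher on the deposited values and a median of -0.09. The split was 4 and 3 as well after quantile and cyclic loess normalization, with medians of -0.06 and -0.03. After median centring it was 5 and 2, with -0.33. Over all features the median was 0.18 as deposited, 0.05 after quantile and -0.03 after cyclic loess normalization, and -0.06 after median centring. IPO9, which carries histones H2A and H2B into the nucleus, had the largest drop of any member in clone 8. It stood at 8.31, 10.42, 10.44 and 10.33 in clones 8, 9, 12 and 2, against 10.60 in wild type cells and 10.50, 10.55 and 10.19 in the empty vector clones. Against the empty vector clones it fell by 2.10 (SE 0.15, adjusted p of 1.11e-08 in limma), or 4.30-fold, while clones 9, 12 and 2 were within the range of the controls. TNPO1, the import receptor of hnRNP A1, stood at 10.62, 12.04, 12.12 and 12.09 in clones 8, 9, 12 and 2, against 12.08 in wild type cells and 12.05, 12.00 and 11.87 in the empty vector clones, and its clone 8 difference was -1.35 (SE 0.14) (adjusted p of 3.85e-07 in limma). IPO5, which imports ribosomal proteins, stood at 10.81, 10.69, 10.55 and 10.54 in clones 8, 9, 12 and 2, against 10.49 in wild type cells and 10.47, 10.54 and 10.48 in the empty vector clones. It was the 1 member of 39 whose 4 knockdown clones all lay above the 4 controls, beside 1.59% of all features, and 0 members lay wholly below them, beside 1.54%. Clone 2 and the nearest empty vector clone are equal at 2 decimals, and the arrays of clone 2 spread from 10.25 to 10.71. The difference was 0.15 (SE 0.11), with an adjusted p of 0.761 in limma. IPO8, a receptor also tied to Argonaute proteins, stood at 9.06, 8.78, 8.70 and 8.69 in clones 8, 9, 12 and 2, against 8.90 in wild type cells and 8.94, 8.87 and 8.90 in the empty vector clones. Clones 9, 12 and 2 lay below all 4 controls and clone 8 above them. KPNB1, the importin beta that works with the importin alpha adaptors, differed by -0.48 (SE 0.13) in clone 8 and passed on the deposited values, and by 0.09 (SE 0.13), 0.03 (SE 0.13) and 0.20 (SE 0.13) in clones 9, 12 and 2, which did not. TNPO3, an import receptor of splicing factors, stood at -0.09 (SE 0.13) in clone 8 and IPO4 at 0.28 (SE 0.14), neither past the threshold. KPNB1 in clone 8 missed it after quantile (-0.21, adjusted p of 0.127 in limma) and cyclic loess normalization (-0.06, 0.684). Under those 2 scalings IPO4 and IPO8 passed as higher. After median centring TNPO3 passed as lower (-0.33, 0.0358 in limma) and IPO5 did not pass (0.07, 0.629).

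Among clones 9, 12 and 2, taken without clone 8, 1 member lay below all 4 controls, IPO8, beside 2.66% of features, and 2 lay above, NUP93 and IPO5, beside 3.44%. These shares of the 39 members are close to those of all features. Against the 3 empty vector clones alone, 1 member lay below all, IPO8, beside 8.82% of features, and 5 lay above, NUP107, NUP93, KPNA2, KPNA3 and IPO5, beside 8.54%. The differences of the 3 members with an unadjusted p under 0.05 without clone 8 were 0.27 (SE 0.07) for NUP93, 0.31 (SE 0.12) for KPNA2 and -0.18 (SE 0.07) for IPO8, and their adjusted p in limma was 0.646, 0.751 and 0.751.

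All 4 exportins were lower in clone 8 on the deposited values, with a median of -0.82, beside 0.18 over all features. Measured from the medians of their level bins, XPO1 stood at 0.19, XPO6 at 0.16, XPO7 at -0.41 and CSE1L at -0.41. XPO1, the main receptor for leucine-rich nuclear export signals, stood at 10.40, 10.99, 11.01 and 11.15 in clones 8, 9, 12 and 2, against 11.22 in wild type cells and 11.12, 11.13 and 10.87 in the empty vector clones. XPO6, which exports actin with profilin, stood at 10.12, 10.69, 10.74 and 10.89 in clones 8, 9, 12 and 2, against 10.86 in wild type cells and 10.87, 10.80 and 10.72 in the empty vector clones. XPO7 stood at 8.98, 10.01, 9.95 and 9.85 in clones 8, 9, 12 and 2, against 10.00 in wild type cells and 10.00, 10.05 and 9.83 in the empty vector clones. Clone 8 was the lowest sample for each and the other 3 knockdown clones overlapped the controls. The fourth exportin, CSE1L, returns importin alpha to the cytoplasm and stood at 10.50, 11.84, 11.92 and 11.73 in clones 8, 9, 12 and 2, against 11.88 in wild type cells and 11.90, 11.76 and 11.58 in the empty vector clones. In clone 8 it differed by -1.25 (SE 0.14) (adjusted p of 1.94e-06 in limma), against -0.64 (SE 0.14) for XPO1, -0.67 (SE 0.13) for XPO6 and -0.98 (SE 0.14) for XPO7. Without clone 8 the knockdown minus control differences of XPO1, XPO6 and XPO7 were all -0.04. After cyclic loess normalization the clone 8 differences of XPO1 (-0.21, adjusted p of 0.164 in limma) and XPO6 (-0.25, 0.0749) missed the threshold, and the median of the 4 was -0.41.

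The Ran cycle was the 1 role whose measured members all rose in clone 8. RAN, the GTPase itself, stood at 10.60, 10.13, 10.11 and 10.51 in clones 8, 9, 12 and 2, against 10.42 in wild type cells and 10.24, 10.05 and 10.15 in the empty vector clones. RANGAP1, which triggers GTP hydrolysis by RAN at the cytoplasmic side, stood at 9.42, 9.00, 8.96 and 9.18 in clones 8, 9, 12 and 2, against 9.12 in wild type cells and 8.97, 8.99 and 8.83 in the empty vector clones. NUTF2, which brings RAN bound to GDP back into the nucleus, stood at 12.67, 11.96, 11.69 and 12.21 in clones 8, 9, 12 and 2, against 11.92 in wild type cells and 11.88, 12.03 and 12.04 in the empty vector clones. Clone 8 was the highest sample for all 3 and clone 2, by its mean, the next. Clones 9 and 12 overlapped the controls, apart from NUTF2 in clone 12, which was the lowest of the 8. Arrays of clone 2 read 10.29, 10.59 and 10.64 for RAN, 9.08, 9.22 and 9.25 for RANGAP1, and 11.82, 12.33 and 12.50 for NUTF2. Array 1 lay below wild type cells for each gene. In clone 8 the differences were 0.45 (SE 0.14) for RAN, 0.50 (SE 0.13) for RANGAP1 and 0.68 (SE 0.13) for NUTF2, with adjusted p of 0.00688, 0.00365 and 3.06e-04 in limma. None of the 3 passed in clone 2. RefSeq lists pseudogenes of RAN, NUTF2, KPNA2, NUP35 and IPO5, and whether the probes also detect their transcripts was not tested.

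**Figure D5:**
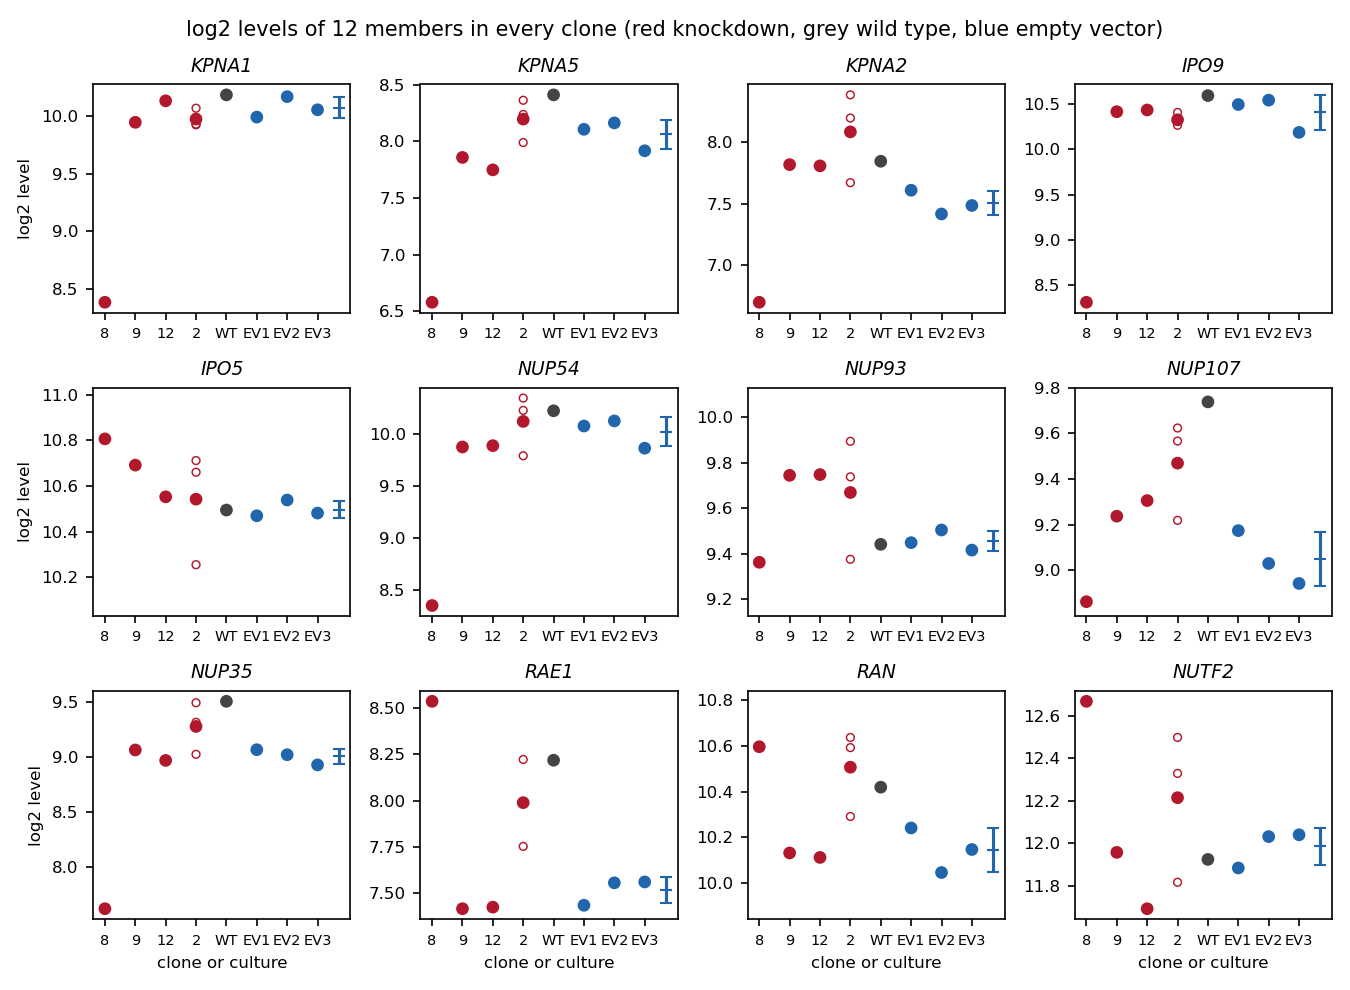
Log2 levels (vertical axes) of 12 members in every clone or culture (horizontal axes), with knockdown clones in red, wild type cells in grey and empty vector clones in blue. Open circles are the 3 arrays of clone 2, of which the filled point is the mean, and the bar at the right is the mean and SD of the 3 empty vector clones. Clone 8 is the lowest sample in 8 panels and the highest for IPO5, RAE1, RAN and NUTF2.

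A fit of the 4 groups compared the constructs and the wild type cells. The 3 clones of construct V2LHS_62673 against the empty vector clones had 0 members past the threshold, beside 0% of features. Clone 2 of construct V2LHS_62675 against the empty vector clones had 0 as well, beside 0%. Clone 2 against the V2LHS_62673 clones and wild type cells against the empty vector clones also gave 0 members and 0% each. In each of these 4 comparisons clone 8 enters the spread between clones. Without it construct V2LHS_62673 still had 0 members past the threshold, beside 0.991% of features. Clone 2 then had 1 member higher than the empty vector clones, KPNA2 (0.58, adjusted p of 0.0311 in limma), beside 3.74% of features in either direction and 1.54% higher. RAE1 and NUP37, at adjusted p of 0.0536 and 0.0752, did not pass in limma.

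Wild type cells differed from the empty vector clones without any LMNB1 shRNA in either. Without clone 8 in the fit of the 4 groups, 3 members were higher in wild type cells, RAE1 at 0.70, NUP107 at 0.69 and NUP35 at 0.50, beside 3.57% of features in either direction and 1.68% higher. In limma the adjusted p-values were 0.0167, 0.0240 and 0.0466 in this order. With the spread of the empty vector clones alone, NUP155 passed too, at 0.52 (adjusted p of 0.0431 in limma), but it missed the threshold after quantile (0.0691), median centring (0.0671) and cyclic loess normalization (0.0887), with no filter (0.0740), and without empty vector clone 2 (0.0669) or 3 (0.0721). NUP35 missed it in limma after cyclic loess (adjusted p of 0.0592), with no filter (0.0533) and without empty vector clone 2 (0.0676). Wild type cells carried neither vector nor puromycin and enter as 1 array, so vector, selection and this culture cannot be told apart.

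Other genes of the pathway were taken from a list of 41, of which 25 have a probe with 1 symbol and 24 passed the filter on low signal. In clone 8, 15 of these 24 passed in limma, 9 lower and 6 higher, with a median of 0.03, beside the 73.9% of all features that passed, 30.4% lower and 43.5% higher. The other pore genes NUP58 at -1.33, NDC1 at -1.32 and NUP42 at -1.22 were lower, as were RANBP17 at -1.06 and the exportin XPO4 at -1.05. The mRNA export factors ALYREF at 1.71, NXT1 at 1.09 and DDX39A at 1.04 were higher. Genes of both kinds also went the other way. The pore genes AHCTF1 and SEC13 read 8.35 and 9.76 in clone 8, above their empty vector means of 7.74 and 9.48. Among the mRNA export genes, THOC5 and PCID2 read 8.06 and 8.70, below means of 8.96 and 9.07. Clones 9 and 12 had 0 of 24 past the threshold, with medians of 0.08 and 0.06, and so did wild type cells, with 0.18. In clone 2, 2 of 24 fell, beside 3.51% of features lower, both linked to mRNA export, PCID2 at -0.64 and THOC7 at -0.57 (adjusted p of 0.0118 and 0.0329 in limma). The median of all 24 in clone 2 was 0.16.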

How the data were processed

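RNA was measured on 10 exon arrays. The authors deposited 1 log2 value per probe (transcript cluster) and array. No label states the base of the logarithm, which was inferred from how high the values reach. The normalization, like the background correction and the genome build, is not given in the sources used here. Per the labels' protocols, ribosomal RNA was removed from Trizol-extracted total RNA. The values were used as deposited. Of 22011 probes, 14432 carry 1 gene symbol, 2408 several and 5171 none. 197 genes had more than 1 such probe, none of them a member, and the probe of highest mean was used. The filter left 11199 features, the LMNB1 probe included.

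The 3 arrays of clone 2 were averaged, which gives 8 samples. Two-sided tests used the lmFit and eBayes functions of limma 3.58.1 under R 4.3.3, with p-values adjusted by Benjamini-Hochberg over all features and a threshold of 0.05, and were tested on simulated data. The main comparison had 6 residual degrees of freedom, the fit of 4 groups 4, and the fit of single clones 2. Without clone 8 the first 2 had 5 and 3. The number of arrays limits the precision.

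Values in every sample are given for up to 3 members of each role with the smallest p in the main comparison, and for members past the threshold, up to 12 per comparison. NUP107 and IPO8 are also given where they stood out, as are RAE1, KPNA2, RAN, RANGAP1 and NUTF2 by array. The members and gene lists were chosen with earlier results of these data known. Alternatives were quantile and cyclic loess normalization, median centring, other filters, the mean of a gene's probes, another prior, array weights, every array as a replicate, the replicate block, fewer controls and leaving out each clone or array. Motifs were searched in RefSeq promoter windows.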

Additional observations from a re-analysis of the deposited data

Results flagged for a closer look

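For 14 members the value of clone 8 was far from the other 3 knockdown clones by Dixon's test. Their log2 levels in clone 8 were 8.74 for NUP155, 8.35 for NUP54, 9.60 for NUP98, 10.22 for NUP88, 9.00 for NUP214, 8.27 for GLE1, 9.08 for NUP153, 8.38 for KPNA1, 9.61 for KPNA3, 9.54 for KPNA6, 10.62 for TNPO1, 8.31 for IPO9, 8.98 for XPO7 and 10.50 for CSE1L, each the lowest of the 4. These are 35.9% of the 39 members. Over all 11199 features clone 8 stood apart on the low side for 10.1% and on the high side for 15.9%. Any knockdown clone stood apart on either side for 26.9% of features, against the same 35.9% of members. These shares of features were not matched to the members by level. In the highest level bin, which held 17 members, clone 8 was lower than the empty vector mean for 84.9% of features. The shares therefore cannot show an excess particular to the members. In the 4 controls the wild type culture stood apart for 2 members, high for RAE1 at 8.22 and low for AAAS at 9.44. A flag in the controls was found for 5.64% of all features. Chance flags about 1 in 20 groups of independent values, but the 14 members share 1 array, in which most features differed, so that share is no measure for them.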

How the results depend on the processing

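The count of 0 members between all knockdown clones and controls held under every alternative run. The members' median there was -0.14 and ran from -0.23 to 0.01 over the omissions of 1 clone or array, the last without clone 8. With array weights 8 named members changed sign, NUP133 to 0.013, SEH1L to 0.0062, NUP43 to 0.11, NUP98 to 0.068, NUP50 to 0.0017, TNPO1 to 0.053, NUTF2 to -0.031 and RAN to -0.0051. Over single omissions 8 changed sign, each without clone 8: NUP133 ran from -0.24 to 0.030, SEH1L from -0.23 without clone 2 and -0.16 without clone 9 to 0.051, NUP43 from -0.24 to 0.11, NUP98 from -0.23 to 0.10, GLE1 from -0.34 without clone 2 and -0.33 without clone 9 to 0.019, NUP153 from -0.46 to 0.015, TNPO1 from -0.42 to 0.085 and NUTF2 from -0.015 to 0.31. In clone 8 against the empty vector clones 28 to 34 members passed over all settings. The 2 members called in clone 2 became 1 after quantile normalization, median centring, cyclic loess normalization and with no filter, 4 with a trended robust prior, and 0 to 6 over single omissions, 0 without empty vector clone 2 and 6 without array 1 of clone 2. The 4 called in wild type cells became 3 after quantile normalization and median centring, 2 after cyclic loess normalization and with no filter, and 2 to 4 over single omissions, 2 without empty vector clone 2. In the fit of 4 groups the counts of 0 ran from 0 to 1 for clone 2 against the empty vector clones, 0 to 1 for clone 2 against the other construct and 0 to 3 for wild type cells, the higher ones without clone 8. The share of all features called moved as well, with the scaling in the tests of single clones and without clone 8 in the fit of 4 groups. Of 11199 features, 313 were called higher in clone 2 as deposited. This fell to 167 after quantile normalization, 180 after median centring and 109 after cyclic loess normalization. For wild type cells 353 fell to 221, 244 and 109 in the same order. The shifts in the members' counts can therefore not be read as changes of the members alone. The causes of these shifts were not tested.

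The arrays of clone 2 and the empty vector arrays share replicate numbers. Their deviations correlated at 0.03, -0.15 and -0.23 within a number, and at up to 0.03, 0.23 and 0.21 across numbers. Each deviation is from a mean of 3 arrays and depends on the others. These values therefore cannot decide whether the numbers pair the arrays. With the replicate number as a block over these 6 arrays 3 members passed, RAE1, KPNA2 and NUP37, beside 8.43% of features. Without the block 2 passed, RAE1 and NUP37, beside 9.20%. These fits took the 3 repeat arrays of clone 2 as separate replicates. Part of the error in them is thus the spread between repeats of the same clone. Their counts are therefore not comparable with the tests that use the mean of the clone 2 arrays.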
